A study of Mus musculus with 4 samples.

Results

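Enzymes that chemically modify foreign compounds were followed across mouse colon epithelium, as 149 genes of 25796 listed. They were chosen by gene symbol from 7 families: 64 cytochromes P450 of families 1 to 4, 21 aldehyde dehydrogenases, 15 UDP-glucuronosyltransferases (UGT), 14 carboxylesterases, 14 aldo-keto reductases of family 1, 11 glutathione transferases of the alpha, pi, theta and omega classes, and 10 sulfotransferases. The rule itself used no measured value, but it was set with earlier results of these data known. For each gene the transcript with the highest mean over the libraries was kept, which took 149 of the 324 transcripts listed for these genes. By annotation 148 of the 149 genes are protein coding, while 5 of the kept transcripts, those of Akr1c19, Ces1f, Cyp2d13, Cyp2d34 and Cyp3a59, have non-coding RefSeq accessions.

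The study sequenced RNA before (input) and after enrichment with an antibody against N6-methyladenosine, an internal base modification of mRNA, and the 4 input libraries are described here. In the first group are 2 libraries labelled Ythdf1 KO, from mice whose gene for the m6A reader protein Ythdf1 is labelled as knocked out, and in the second are 2 libraries labelled wild type (WT). All 4 came from epithelial cells shaken off opened colons in a buffer with a chelator and a reducing agent. The altered part of Ythdf1, the strain, age and sex of the mice, and whether each library is a separate mouse were not stated in the labels. The p-values therefore reflect the spread of these particular samples alone, part or all of which may be technical.

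Enzymes of phase I, which are the P450s, carboxylesterases, aldehyde dehydrogenases and aldo-keto reductases, oxidise, reduce or hydrolyse a compound and so expose or create a reactive group. Phase II enzymes then join that group to glucuronic acid, sulfate or glutathione, which makes the product more soluble and easier to export. In the intestine these enzymes sit mainly in absorptive cells, and many are regulated by the nuclear receptors PXR, PPAR and HNF4 or by the aryl hydrocarbon receptor.

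The libraries held 25936859 and 30951138 reads for the libraries labelled Ythdf1 KO 1 and Ythdf1 KO 2, against 21686140 and 24576164 for WT 1 and WT 2, counted on 1 transcript per gene. Values below are the authors' normalised reads, that is reads divided by a size factor of the library. They are not divided by length, so differences are read between libraries within a gene. Cut-offs on the mean, rankings by mean and sums over genes do depend on transcript length. Ythdf1 itself had 1752 and 1737 normalised reads in the libraries labelled Ythdf1 KO, against 1088 and 775.4 in WT. The targeted gene was thus not lower where the label says knockout, so the group is called by its label throughout and every direction below rests on that label. Across the 7431 genes whose mean reached 500, the log2 values of the WT libraries had a Pearson correlation of 0.936, and those of Ythdf1 KO 1 correlated with WT 1 and WT 2 at 0.928 and 0.930, as a description across genes that share each library. The library labelled Ythdf1 KO 2 stood apart, at 0.910 to Ythdf1 KO 1, 0.908 to WT 1 and 0.914 to WT 2, so results that rest on it are given with and without it.

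The tissue label was checked on marker genes. All 15 genes of a list of absorptive colonocyte markers were listed, among them Krt20 and Vil1, and their sums ran from 289550 to 336650 normalised reads where the label was Ythdf1 KO and from 389100 to 424110 in WT. Of 14 leukocyte markers 13 were listed, with sums of 693.2 to 1224 against 1527 to 1792 in WT. Of 10 markers of liver, a tissue with high levels of many of these enzymes, 7 were listed, with sums of 2640 to 3094 in the libraries labelled Ythdf1 KO, against 2986 to 3498 in WT, and most of that was Ass1, Tat and Cps1. The defining liver markers Alb, Apoc3 and Fgb were not listed.

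Upstream sequences are shown for 4 of the genes whose values stood lowest in a single library, described further on: a pair of neighbouring P450 genes, a carboxylesterase and the UGT1 gene that makes the bilirubin-conjugating enzyme. Each is the 250 bases before the RefSeq transcription start, 5′ to 3′ on the plus strand of GRCm38.p6 (mm10): chr19:39006769-39007018 for Cyp2c55, chr19:39060756-39061005 for Cyp2c65, chr8:104733753-104734002 for Ces2a and chr1:88211709-88211958 for Ugt1a1. Capitals mark matches to the motifs named in the next paragraph.
Cyp2c55: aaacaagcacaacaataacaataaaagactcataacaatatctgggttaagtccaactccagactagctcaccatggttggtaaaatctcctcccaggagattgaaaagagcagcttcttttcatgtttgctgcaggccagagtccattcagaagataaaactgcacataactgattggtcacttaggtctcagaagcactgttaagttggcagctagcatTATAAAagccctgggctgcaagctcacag
Cyp2c65: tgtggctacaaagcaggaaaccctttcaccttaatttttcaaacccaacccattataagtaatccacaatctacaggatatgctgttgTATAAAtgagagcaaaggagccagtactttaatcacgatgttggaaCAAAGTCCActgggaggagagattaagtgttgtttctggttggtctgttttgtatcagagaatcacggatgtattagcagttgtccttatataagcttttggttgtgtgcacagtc
Ces2a: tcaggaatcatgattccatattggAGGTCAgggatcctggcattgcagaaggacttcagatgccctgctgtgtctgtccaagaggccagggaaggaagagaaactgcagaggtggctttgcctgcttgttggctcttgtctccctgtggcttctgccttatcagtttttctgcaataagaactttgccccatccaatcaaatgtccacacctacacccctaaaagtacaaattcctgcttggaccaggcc
Ugt1a1: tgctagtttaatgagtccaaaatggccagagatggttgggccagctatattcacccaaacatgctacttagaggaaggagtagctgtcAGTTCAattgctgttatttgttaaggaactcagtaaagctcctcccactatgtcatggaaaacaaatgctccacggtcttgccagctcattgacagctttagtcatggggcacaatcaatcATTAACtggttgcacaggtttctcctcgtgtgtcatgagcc

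The motifs searched were AGGTCA and AGTTCA (cores of nuclear receptor sites), CAAAGTCCA (a site of HNF4), GCGTG (the core of aryl hydrocarbon receptor sites), TGACNNNGC (the core of the antioxidant element bound by NRF2), GTTAAT (a part of the HNF1 site) and TATAAA (the TATA box). TATAAA was read on the gene's own strand and the others on both strands. The reverse complement of AGGTCA begins with the same TGAC as TGACNNNGC, so these matches can overlap. The Cyp2c55 window had TATAAA 29 bases before the start, and the Cyp2c65 window had TATAAA at 162 and CAAAGTCCA at 116 bases before it. Variants of the TATA box, such as the tatataag close to the start of Cyp2c65, were not searched for and are not marked. The Ces2a window had AGGTCA at 226 bases, and the Ugt1a1 window had AGTTCA at 162 bases and ATTAAC, the reverse complement of GTTAAT, at 41 bases before the start.

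A RefSeq window at the start of the kept transcript was found for 85 of the 149 enzymes, and the table held 32851 windows of any gene. GTTAAT stood in 17.6% of the enzyme windows and 6.43% of all windows, CAAAGTCCA in 5.88% and 0.384%, TATAAA in 16.5% and 7.59%, AGGTCA in 21.2% and 14.0%, and AGTTCA in 14.1% and 11.8%. Windows with GCGTG made up 14.1% of the enzyme windows and 28.2% of all, and those with TGACNNNGC 5.88% and 10.2%. These are counts of letters in a window. The enzyme windows were a single window per gene at the kept start, while the windows of any gene were not selected in that way. Neighbouring genes of a family share sequence, so the windows are not independent, and a match is not a binding site.

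Between the labelled groups, none of the 149 enzymes passed the test, and the number lying outside the WT range in both libraries was near that of all genes. On log2(value + 1) with limma-trend and Benjamini-Hochberg adjustment, 0 of 144 enzymes tested and 0 of 23116 genes tested were called in either direction (0.0% lower and 0.0% higher), and the smallest adjusted p was 0.759. At an unadjusted p under 0.05, 6 enzymes were lower and 2 higher in the libraries labelled Ythdf1 KO, against 3.52% and 1.92% of all genes tested. Both such libraries lay below both WT libraries for 29 of 144 enzymes (20.1%), against 21.4% of all genes tested, and above both for 15 (10.4%), against 14.3%. The median log2 difference was -0.15 over the enzymes and -0.09 over all genes.

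Among the 61 enzymes with a mean of at least 500, 10 lay below both WT libraries (16.4%) and 5 above (8.2%), against 12.8% and 22.7% of all genes at that level. The 10 were Cyp2c55, Cyp2c65, Cyp4f14, Ces2c, Ces1f, Akr1c19, Akr1c14, Akr1c12, Akr1b8 and Sult1d1. Higher in both libraries labelled Ythdf1 KO were Aldh1b1, Aldh6a1, Cyp4f16, Cyp2d10 and Sult1b1. edgeR's quasi-likelihood test on the recovered whole reads, adjusted by Benjamini-Hochberg, called 0 enzymes of 142 tested, with 8 (5.63%) at an unadjusted p under 0.05, against 4.66% of genes. Without an intensity trend, limma called 3 enzymes (Akr1c6, Cyp2a22 and Cyp4f39) lower and 0 higher, against 1.86% and 0.402% of all genes.

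In the library labelled Ythdf1 KO 2, 14 of the 61 enzymes with a mean of at least 500 (23.0%) lay under 0.5 times the lowest of the other 3 libraries, against 1.33% of all 7431 genes at that level. The same count was 1 of 61 in Ythdf1 KO 1 (Aldh4a1), against 0.955% of genes, while no enzyme met it in WT 1 (0.525% of genes) or in WT 2 (0.404% of genes). None of the 61 lay above 2 times the highest other library in Ythdf1 KO 2, where 0.471% of genes did. The level of 500 and the factor of 0.5 were chosen after the values had been seen, so the count is a description with no test.

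**Figure D1:**
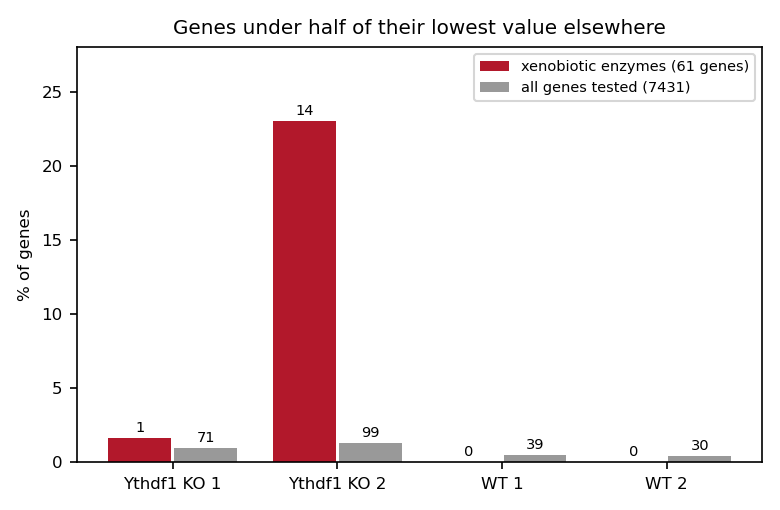
Percentage of genes, among those whose mean reached 500 normalised reads (y axis), that lay under 0.5 times the lowest of the other 3 libraries, for each library (x axis), with the 61 xenobiotic enzymes in red and all 7431 genes in grey. Numbers on the bars are gene counts, and the bar of the enzymes in Ythdf1 KO 2 stands for 14 genes, 23.0%.

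The 14 enzymes were Cyp2c55, Cyp2c65 and Cyp4b1 among the P450s, Ces1g, Ces1f and Ces2a among the carboxylesterases, the retinaldehyde dehydrogenase Aldh1a1, and 7 genes of the Ugt1a locus. Just inside the limit was Ugt1a6a, at 0.497 times the lowest other library, and just outside were Gstt2 at 0.523, Ces2e at 0.543, Ugt1a7c at 0.554 and Ces2c at 0.607. The Ugt1a genes share most of their reads. Taken as 1 locus they leave 7 of 54 enzymes under the limit when Ugt1a7c, the most abundant transcript and the one outside the limit, stands for the locus, and 8 of 54 when the least abundant transcript does. Where the mean reached 100, 18 of 89 enzymes (20.2%) were under it in Ythdf1 KO 2, against 6.09% of genes, and with no minimum 27 of 144 (18.8%), against 10.1%.

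**Figure D2:**
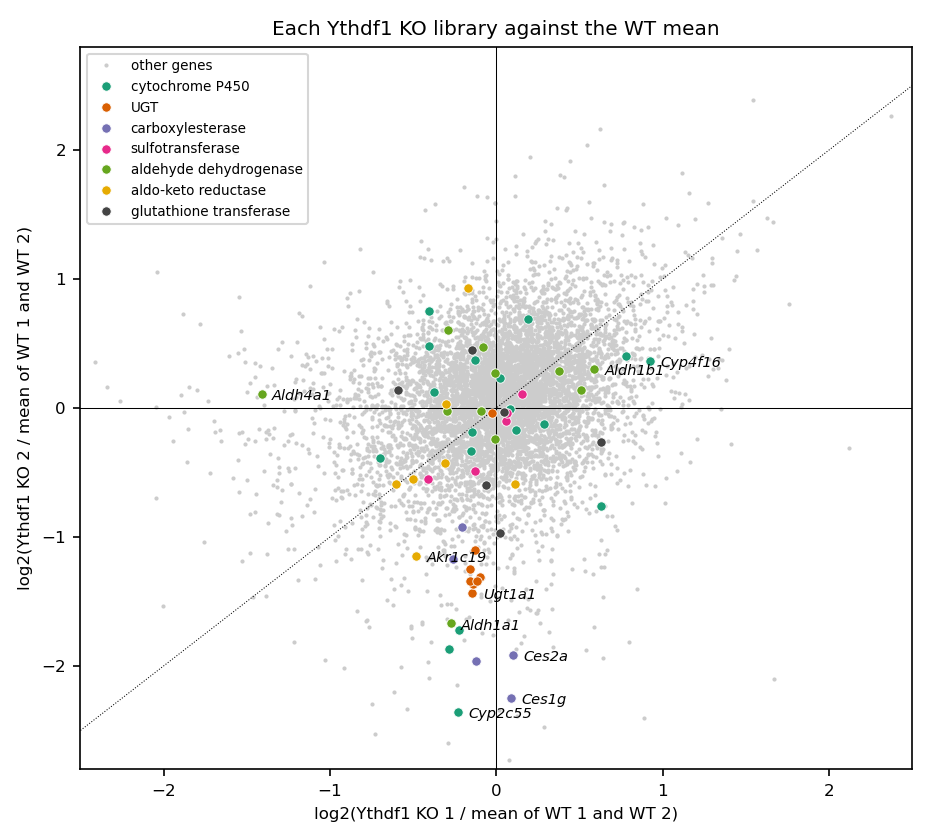
Each library labelled Ythdf1 KO against the mean of WT 1 and WT 2, as log2 ratios, with Ythdf1 KO 1 on the x axis and Ythdf1 KO 2 on the y axis. Each point is a gene with a mean of at least 500 normalised reads, coloured by enzyme family or grey for other genes, and 7 other genes lie outside the axes. The Ugt1a genes, Cyp2c55, Ces2a and Ces1g lie near 0 on the x axis and far below 0 on the y axis.

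Summed over the enzymes, the values came to 227797 and 157157 in Ythdf1 KO 1 and Ythdf1 KO 2, against 230009 and 265811 in WT 1 and WT 2. That sum was 0.906% and 0.614% of the listed signal of Ythdf1 KO 1 and 2, against 0.941% and 1.07% in WT. It counts the shared reads of the 8 Ugt1a genes repeatedly. Those genes held 68943 and 30652 of it in Ythdf1 KO 1 and 2, against 63608 and 87556 in WT. Cyp2c55 held 30022 and 6877, against 36857 and 33701. The sum and its share of the signal thus follow these genes more than the rest of the set. Over the 61 enzymes the median ratio to the WT mean was 0.916 in Ythdf1 KO 1 and 0.848 in Ythdf1 KO 2, where all genes at that level had 1.03 and 1.06. WT 2 stood high as well, since it was the highest of the 4 libraries for 33 of the 61 enzymes, against 21.4% of genes, and the median ratio of WT 2 to WT 1 was 1.24 over the enzymes and 1.03 over genes. This raises the WT mean in these ratios, whereas the count under 0.5 times the lowest other library does not use it. In bulk RNA, fewer cells of a type and less RNA per cell cannot be told apart.

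Marker lists differed in the library labelled Ythdf1 KO 2 as well. Absorptive colonocyte markers summed to 336650 in Ythdf1 KO 1 and 289550 in Ythdf1 KO 2, against 389100 and 424110 in WT. Small intestine markers (14 of 15 listed, Apoa4 not) summed to 20864 and 11579 in the libraries labelled Ythdf1 KO, against 15644 and 19803 in WT. Goblet cell markers summed to 1053800 and 725800, against 913500 and 841150, a sum carried by Muc2, without which the other 9 came to 369910 and 323643 against 306468 and 325778. Crypt and stem cell markers (10 of 10 listed) summed to 22811 and 25216 in the libraries labelled Ythdf1 KO, against 17124 and 18767 in WT. Of the 10, 4 lay above both WT libraries (Lgr5, Sox9, Mki67 and Rrm2) and none below, against 14.3% and 21.4% of all genes tested. The overlapping Pcna, Ascl2, Smoc2 and Olfm4 had negative log2 differences, and Axin2 and Top2a positive ones. Hox genes of the distal hindgut (7 of 7 listed) summed to 4936 and 14055 in the libraries labelled Ythdf1 KO, against 4966 and 5108 in WT, and in Ythdf1 KO 2 Hoxa13, Hoxb13 and Hoxd13 were each above 2 times the highest other library. The part of these shifts in the enzymes' values was not tested.

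Fitted against the WT libraries without Ythdf1 KO 1, with the lone library assumed to vary like WT, Ythdf1 KO 2 gave 27 lower genes of 21831 (0.124%) and 9 higher (0.0412%) by limma-trend with Benjamini-Hochberg adjustment. Of the 134 enzymes tested there, 12 were among the 27 lower genes: Cyp2c55, Cyp2c65, Ces2a, Ces1f, Aldh1a1 and the Ugt1a genes other than Ugt1a7c. None was among the higher ones. Without Ythdf1 KO 2, the same fit called 0 genes, with 11 of 134 enzymes (8.21%) and 7.97% of genes at an unadjusted p under 0.05, and the median log2 difference of the enzymes was -0.01. This compares single libraries with WT and has no replicate of either. The Ugt1a genes named here share most of their reads, so they stand for 1 locus rather than for separate results.

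**Figure D3:**
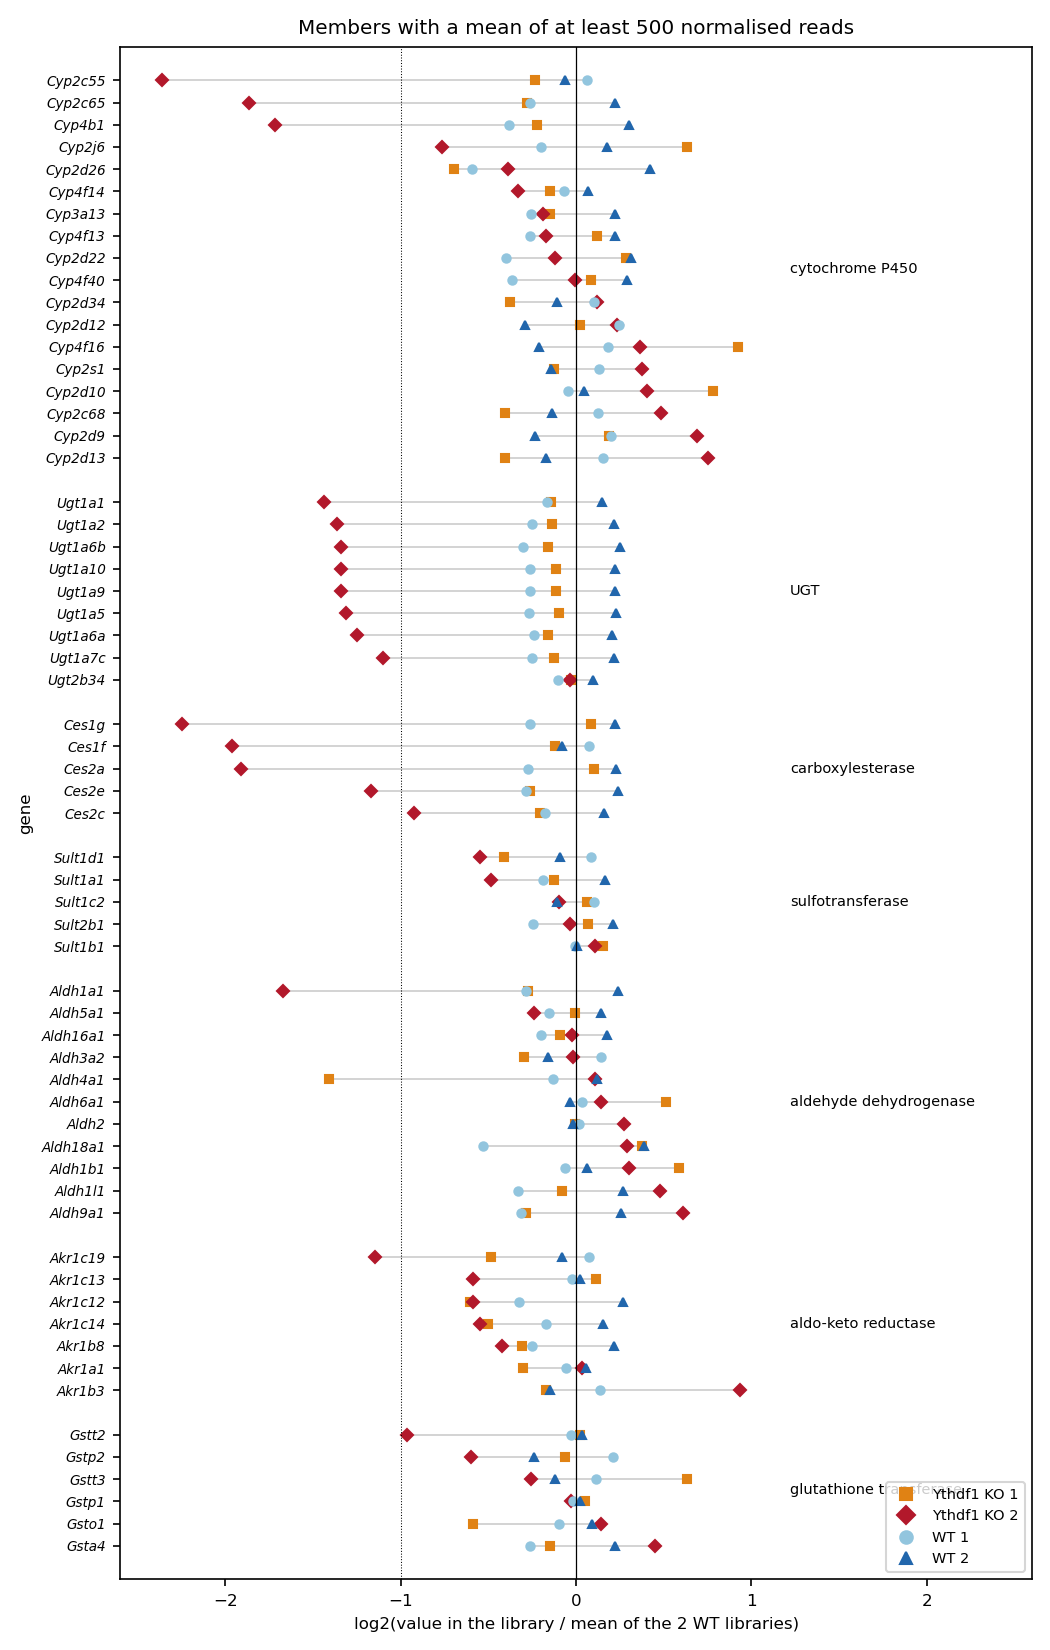
Values of the 61 enzymes with a mean of at least 500 normalised reads, as log2 ratios to the mean of the 2 WT libraries (x axis), with a row per gene grouped by family and a symbol per library. The dotted line marks a ratio of 0.5. Red diamonds (Ythdf1 KO 2) of the Ugt1a genes, of the carboxylesterases Ces1g, Ces1f and Ces2a and of Cyp2c55 lie left of that line, while the orange squares of the same genes (Ythdf1 KO 1) lie beside the WT symbols.

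Among the P450s, the haem enzymes that insert oxygen into lipids, steroids and drugs, 9 of 61 tested were below both WT libraries and 8 above (21.4% and 14.3% of all genes tested), and their median log2 difference was 0.04. Cyp2c55 (mm10 chromosome 19, 39007019 to 39042687), which oxidises arachidonic and linoleic acid and is typical of colon, had 30022 and 6877 normalised reads in the libraries labelled Ythdf1 KO 1 and 2, against 36857 and 33701 in WT. The groups did not overlap: Ythdf1 KO 1 lay just under WT 2, and Ythdf1 KO 2 far under the rest. The log2 difference was -1.29 ± 0.62 (SE, n = 2 each, limma-trend adjusted p = 0.759). It was -2.36 without Ythdf1 KO 1 and -0.23 without Ythdf1 KO 2, each from a lone library without a replicate.

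Cyp2c65, the next gene of that cluster on chromosome 19, had 2890 and 963.7 normalised reads in the libraries labelled Ythdf1 KO, against 2928 and 4099 in WT. Ythdf1 KO 1 lay just under WT 1, and Ythdf1 KO 2 far under all others. Cyp2c68, further along the chromosome, ran otherwise, with 397.5 and 733.7 against 572.6 and 478.6. Cyp4b1, which oxidises fatty acids and furans, had 1054 and 373.9 against 943.4 and 1516, and was low in Ythdf1 KO 2 alone. The low value in that library was thus not shared by all P450s: the median ratio to the WT mean over 18 P450s with a mean of at least 500 was 0.909 in Ythdf1 KO 1 and 0.958 in Ythdf1 KO 2.

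Cyp4f16, an enzyme of the fatty acid hydroxylase subfamily Cyp4f, had 2552 and 1731 normalised reads in the libraries labelled Ythdf1 KO, against 1527 and 1161 in WT. Cyp2d10 had 1009 and 778.4, against 568.1 and 606.8. For both genes the groups did not overlap, with log2 differences of 0.66 ± 0.29 and 0.59 ± 0.33 (SE) and adjusted p of 0.759 and 0.762 by limma-trend. Cyp2f2, which activates naphthalene in the lung, had 522.6 and 632.0 against 342.7 and 180.7, a log2 difference of 1.20 ± 0.50 (SE).

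Most other abundant P450s overlapped between groups. Cyp2d34 had 3942 and 5559 normalised reads in the libraries labelled Ythdf1 KO, against 5485 and 4737 in WT. Cyp2s1, an extrahepatic P450 of epithelia, had 3905 and 5526 against 4662 and 3870, and both genes were higher in Ythdf1 KO 2 than in Ythdf1 KO 1. Cyp4f14, which hydroxylates leukotriene B4, had 3819 and 3362 against 4035 and 4432, which is below both WT libraries by a small difference of -0.24 ± 0.18 (SE) on the log2 scale. Cyp1a1, the classical target of the aryl hydrocarbon receptor, was listed at 221.0 in Ythdf1 KO 1 and 0 in Ythdf1 KO 2, against 0 in WT 1 and 126.2 in WT 2, so that its level varied as much within each group as between them. Cyp2d9, at 559.4 and 791.6 against 563.6 and 417.0, overlapped at a single pair of libraries.

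Carboxylesterases, which hydrolyse ester drugs and acylglycerols, had their low values mainly in Ythdf1 KO 2. Over the 5 with a mean of at least 500, the median ratio to the WT mean was 0.920 in Ythdf1 KO 1 and 0.266 in Ythdf1 KO 2, and 5 of 13 tested were below both WT libraries with none above (21.4% and 14.3% of all genes tested). Ces2a (chromosome 8, 104734003 to 104741634) had 5210 and 1290 normalised reads in the libraries labelled Ythdf1 KO, against 4022 and 5689 in WT, so Ythdf1 KO 1 lay between the WT libraries. Its log2 difference was -0.88 ± 0.61 (SE; limma-trend adjusted p = 0.813), and without Ythdf1 KO 2 it was 0.12.

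Ces2c had 4264 and 2588 normalised reads in the libraries labelled Ythdf1 KO, against 4335 and 5485 in WT, with no overlap and a log2 difference of -0.55 ± 0.28 (SE). Ces2e had 3883 and 2075 against 3822 and 5494. In both genes Ythdf1 KO 1 stood next to WT 1. Ces1f had 1726 and 480.6 against 1976 and 1776, and Ces1g, an enzyme tied to lipid secretion in liver and intestine, had 1339 and 265.5 against 1049 and 1472. The Ces1 and Ces2 genes lie in separate clusters on chromosome 8, and members of both were low in the same library.

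A pair of low-level carboxylesterases was listed at 0 in both libraries labelled Ythdf1 KO. Ces1a had 0 and 0, against 228.8 and 67.6 normalised reads in WT, which is at least 55.0-fold lower with 3 reads per library as the floor, and at least 25.1-fold lower when only WT 2 is counted. Ces3a had 0 and 0 against 308.8 and 0, was not tested, and rests on WT 1 alone. Floors cover counting error only.

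Aldehyde dehydrogenases, which oxidise aldehydes to acids, lay on both sides of WT: 5 of 21 tested lay below both WT libraries and 4 above, near the shares of 21.4% and 14.3% over all genes tested. Aldh1b1 (chromosome 4, 45799022 to 45804608), a mitochondrial enzyme of crypt cells, had 5576 and 4573 normalised reads in the libraries labelled Ythdf1 KO, against 3551 and 3864 in WT. The groups did not overlap, and the log2 difference of 0.45 ± 0.18 (SE; limma-trend adjusted p = 0.759) held its sign without each library in turn, between 0.30 and 0.59. Aldh1a1, which makes retinoic acid, had 2774 and 1053 against 2755 and 3951 and was low in Ythdf1 KO 2 alone. Aldh1a3, another enzyme of retinoic acid synthesis, had 152.2 and 213.4 against 94.7 and 92.9.

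Aldh2, which clears acetaldehyde in mitochondria, had 16432 and 19945 normalised reads in the libraries labelled Ythdf1 KO, against 16682 and 16284 in WT, so Ythdf1 KO 2 was the highest. Aldh1l1, of folate metabolism, had 2505 and 3688 against 2106 and 3193. Aldh3a2, which oxidises fatty aldehydes, had 2210 and 2677 against 2995 and 2431. These 3 overlapped between groups, with log2 differences of 0.14, 0.23 and -0.15. Aldh3b2, an enzyme of lipid aldehyde oxidation, had 184.2 and 111.7 against 375.3 and 609.8, without overlap and with a log2 difference of -1.73 ± 0.58 (SE; limma-trend adjusted p = 0.759).

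Aldh4a1, of proline breakdown, was the single enzyme at its level that was low in Ythdf1 KO 1, with 450.8 normalised reads there and 1293 in Ythdf1 KO 2, against 1095 and 1301 in WT. The median ratio to the WT mean over 11 aldehyde dehydrogenases with a mean of at least 500 was 0.946 in Ythdf1 KO 1 and 1.10 in Ythdf1 KO 2, so this family as a whole was not low in that library.

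Aldo-keto reductases, which reduce carbonyl groups of steroids, sugars and lipid aldehydes, were the family most often lower in both libraries labelled Ythdf1 KO. Of 14 tested, 8 lay below both WT libraries and 1 above, against 21.4% and 14.3% of all genes tested, and their median log2 difference was -0.51. Akr1c19 (chromosome 13, 4233503 to 4248361) had 2589 and 1635 normalised reads in the libraries labelled Ythdf1 KO, against 3814 and 3423 in WT. Its log2 difference of -0.81 ± 0.27 (SE; limma-trend adjusted p = 0.759) was -1.14 without Ythdf1 KO 1 and -0.48 without Ythdf1 KO 2. The difference from other families was not tested.

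Akr1c14, a hydroxysteroid dehydrogenase, had 1447 and 1399 normalised reads in the libraries labelled Ythdf1 KO, against 1822 and 2277 in WT. Akr1c12 had 1034 and 1046 against 1252 and 1888. In both genes the libraries labelled Ythdf1 KO lay close together and under both WT libraries, which differed more between themselves. Akr1c13, beside them on chromosome 13, had 1610 and 990.1 against 1468 and 1514 and overlapped. Akr1a1, a general aldehyde reductase, had 3275 and 4133 against 3890 and 4197. Akr1b8 had 1106 and 1021 against 1150 and 1591, a distance smaller than that between the WT libraries. The neighbouring Akr1b3, aldose reductase, had 818.3 and 1756 against 1010 and 829.9 and was highest in Ythdf1 KO 2.

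UGTs, which attach glucuronic acid, had no gene of 14 tested below or above both WT libraries (21.4% and 14.3% of all genes tested), and a median log2 difference of -0.70. The Ugt1a genes splice different first exons to shared last exons, and the kept transcripts of 7 of the 8 end at the same base of chromosome 1 (88220002), so their values count many of the same reads. Ugt1a9 and Ugt1a10 differed by at most 1 read in any library. Ugt1a1, the enzyme that conjugates bilirubin, had 9401 and 3840 normalised reads in the libraries labelled Ythdf1 KO, against 9260 and 11511 in WT. Ugt1a7c had 10362 and 5271 against 9517 and 13146, so in both genes Ythdf1 KO 1 lay within the WT range and Ythdf1 KO 2 far below it.

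The value of Ugt1a9, the lowest of those 7 transcripts, was taken off the others to leave reads outside the common part. For Ugt1a1 this left 1419 and 424.3 normalised reads in the libraries labelled Ythdf1 KO, against 2057 and 1423 in WT, a ratio to the WT mean of 0.816 in Ythdf1 KO 1 and 0.244 in Ythdf1 KO 2. For Ugt1a6a, which prefers simple phenols, it left 1092 and 835.4 against 1356 and 1600, ratios of 0.739 and 0.565. For Ugt1a7c it left 2380 and 1855 against 2314 and 3058, ratios of 0.886 and 0.691. These 3 remainders were lowest in Ythdf1 KO 2. The smaller remainders differed: Ugt1a2 kept 70.8 and 24.0 against 243.5 and 186.8, low in both libraries labelled Ythdf1 KO (ratios of 0.329 and 0.112), and Ugt1a5 kept 303.5 and 163.8 against 149.9 and 303.9, lowest in WT 1 (ratios of 1.34 and 0.722). Ugt2b34, of the separate UGT2 cluster on chromosome 5, had 6505 and 6469 against 6171 and 7093 and was not low in that library.

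Sulfotransferases, which transfer sulfate to phenols, amines and sterols, had 1 of 10 tested below and 1 above both WT libraries (21.4% and 14.3% of all genes tested). Over the 5 with a mean of at least 500, the median ratio to the WT mean was 1.04 in Ythdf1 KO 1 and 0.934 in Ythdf1 KO 2. Sult1d1, which sulfates catecholamines, had 2261 and 2054 normalised reads in the libraries labelled Ythdf1 KO, against 3189 and 2824 in WT. The groups did not overlap, and the log2 difference was -0.48 ± 0.20 (SE; limma-trend adjusted p = 0.759), between -0.57 and -0.39 without each library in turn. Its neighbour Sult1b1, which sulfates thyroid hormones, lay above WT by a small margin, with 1739 and 1685 against 1553 and 1570. Sult1a1, of phenols, had 3434 and 2673 against 3290 and 4209. The cholesterol-sulfating Sult2b1 had 1442 and 1343 against 1162 and 1590, and Sult1c2 had 547.8 and 490.5 against 562.5 and 487.6, both with overlap.

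Glutathione transferases, which join glutathione to electrophiles, had 1 of 11 tested below and 1 above both WT libraries (21.4% and 14.3% of all genes tested), and a median log2 difference of 0.01. Gstp1 was the steadiest, with 2450 and 2319 normalised reads in the libraries labelled Ythdf1 KO, against 2336 and 2401 in WT. Its close copy Gstp2 had 688.3 and 475.6 against 830.7 and 607.8, and reads of such copies may not be told apart. Gsto1, a thiol transferase of the omega class, had 3038 and 5033 against 4267 and 4870. Gsta4, which removes the lipid aldehyde hydroxynonenal, had 532.3 and 804.8 against 490.3 and 688.6, and Gstt3 had 1391 and 749.4 against 970.5 and 823.8. All 5 overlapped between groups. Gsto2 was low in both libraries labelled Ythdf1 KO, at 0 and 39.7 against 322.4 and 165.6, with a log2 difference of -5.18 ± 2.28 (SE; limma-trend adjusted p = 0.759) that was -7.86 without Ythdf1 KO 2 and -2.51 without Ythdf1 KO 1.

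**Figure D4:**
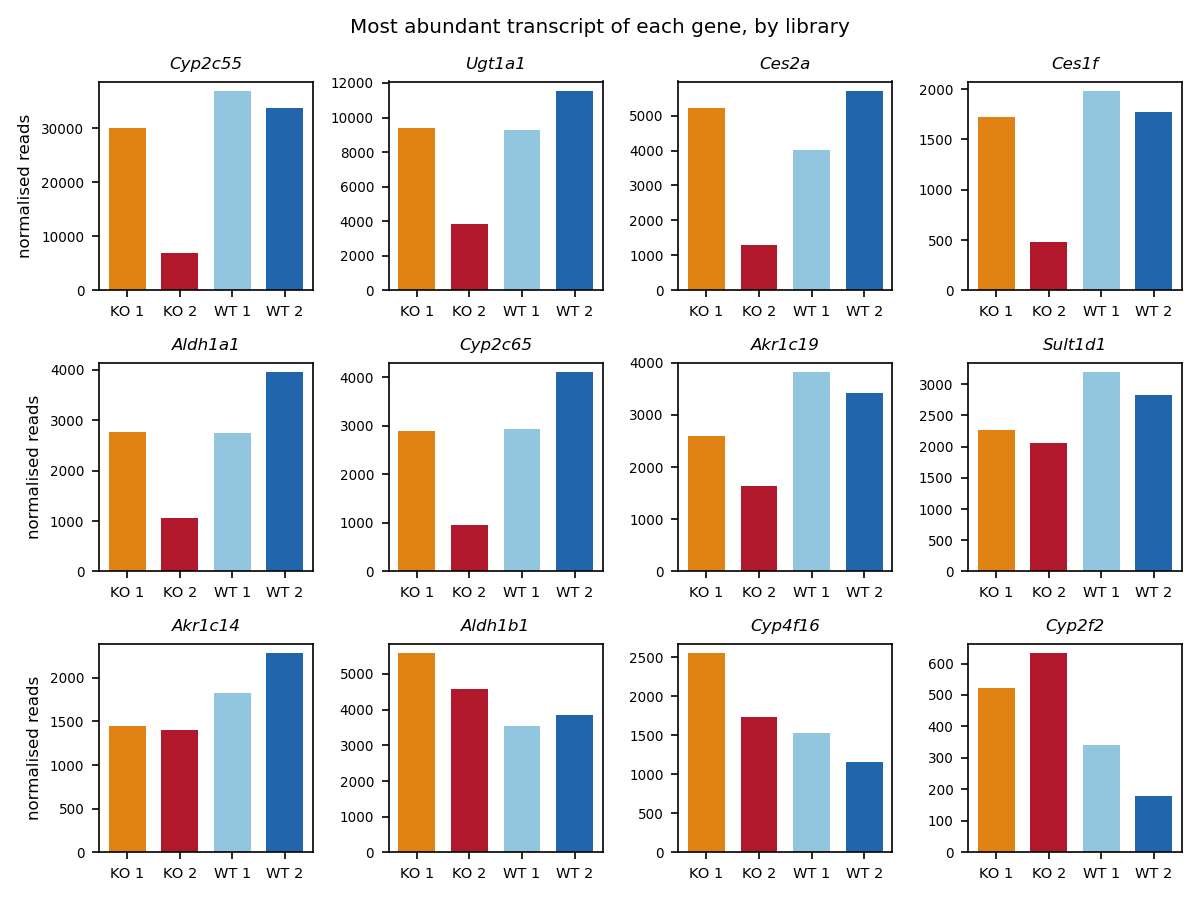
Normalised reads (y axes, from 0) of 12 enzymes in each library (x axes), with the libraries labelled Ythdf1 KO in orange and red and WT in blue. Cyp2c55, Ugt1a1, Ces2a, Ces1f, Aldh1a1 and Cyp2c65 are lowest by far in Ythdf1 KO 2, Akr1c19, Sult1d1 and Akr1c14 are lower in both libraries labelled Ythdf1 KO, and Aldh1b1, Cyp4f16 and Cyp2f2 are higher in both.

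The authors' deposited table, which gives a q-value per transcript, listed 8 of the 149 enzymes as lower in Ythdf1 KO at q under 0.05, against 3.23% of all genes, and 2 as higher, against 1.24%. The higher ones in the authors' deposited table were Cyp2u1 and Gstt4. DESeq2 on the recovered reads called 8 enzymes lower (2.98% of genes) and 1 higher (1.33% of genes) at an adjusted p under 0.05. The lower ones by DESeq2 were Akr1c19, Aldh3b2, Ces1a, Ces3a, Cyp2a22, Cyp2j9, Cyp4f39 and Akr1cl, and Gstt4 was the higher. Cyp2a22 and Cyp4f39 were listed at 0 in both libraries labelled Ythdf1 KO, Cyp2j9 and Akr1cl at no more than 1.65 normalised reads there, and Gstt4 at 0 in both WT libraries. None of the 14 enzymes low in Ythdf1 KO 2 was among these calls. Over all 149 enzymes, 41 were at 0 in at least 1 library, and none of these had a mean of at least 500.

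Genes around these enzymes were read from 4 lists, chosen like the enzymes with earlier results of these data known, and limma-trend on all 4 libraries called none of them. Of 19 receptors and partners, 6 lay below both WT libraries and 4 above (21.4% and 14.3% of all genes tested). In all 4 lists most genes had a mean of at least 500 (17 of these 19), where the shares of genes were 12.8% below and 22.7% above. Hnf4a, a regulator of intestinal enzymes, had 25619 and 29424 normalised reads in the libraries labelled Ythdf1 KO, against 22940 and 25375 in WT, and Nr1i2, which encodes PXR, had 2076 and 1720 against 1599 and 1663. Both lay above WT by less than the range of their own group. The fatty acid receptors Ppara, with 1500 and 891.7 against 1836 and 1871, and Pparg, with 1897 and 1434 against 2350 and 2439, lay below WT. Both were lowest in Ythdf1 KO 2. The more abundant Ppard, with 9788 and 11489 against 12509 and 11030, overlapped and was higher in Ythdf1 KO 2 than in Ythdf1 KO 1.

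Of 23 electron donors and other phase I enzymes, 3 lay below both WT libraries and 6 above (21.4% and 14.3% of all genes tested). Por, the reductase that feeds electrons to P450s, had 4195 and 3473 normalised reads in the libraries labelled Ythdf1 KO, against 4088 and 4753 in WT, and Cbr1, a carbonyl reductase, had 5039 and 4436 against 3908 and 3347. Por overlapped and Cbr1 was higher in both libraries labelled Ythdf1 KO, with a log2 difference of 0.39 ± 0.18 (SE).

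Of 22 tested genes of cofactor supply and other phase II reactions, 3 lay below both WT libraries and 5 above (21.4% and 14.3% of all genes tested). Ugdh, which makes the glucuronic acid donor of the UGTs, had 12215 and 6586 normalised reads in the libraries labelled Ythdf1 KO, against 10851 and 14585 in WT. Papss2, which makes the sulfate donor, had 10672 and 6574 against 11918 and 13317, and both genes were lowest in Ythdf1 KO 2. Gclm, a subunit of the enzyme that starts glutathione synthesis, had 1619 and 1409 against 869.0 and 1138, and Tpmt, a thiol methyltransferase, had 53.3 and 72.8 against 232.2 and 208.0. Neither overlapped between groups.

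Of 16 transporters, 4 lay below both WT libraries and 4 above (21.4% and 14.3% of all genes tested). Abcb1a, the efflux pump P-glycoprotein, had 27749 and 19291 normalised reads in the libraries labelled Ythdf1 KO, against 33228 and 33116 in WT, and Abcg2, another efflux pump, had 1337 and 865.2 against 1380 and 1504. Both were lower in both libraries labelled Ythdf1 KO and lowest in Ythdf1 KO 2. In the fit without Ythdf1 KO 1, Abcb1a had a log2 difference of -0.78, which rests on a lone library without a replicate. With a mean of at least 500, none of the genes of these 4 lists lay under 0.5 times the lowest other library in Ythdf1 KO 2.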

How the data were processed

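Epithelial cells of mouse colon gave 4 input libraries of a methylated RNA immunoprecipitation experiment, 2 labelled Ythdf1 KO and 2 labelled WT. Per the submitters' processing notes, the tools were deepTools 3.3.0, HOMER 4.10, MACS2 2.1.0, SAMtools 1.3.1, Bowtie2 2.2.5 and CASAVA 1.8 and the build was mm10, with no role or order. Not given in the sources used here are the counting program, its use of strand and the authors' comparison tool.

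The deposited expression signal of each transcript was a read count divided by a size factor of the library: 100% of the values in each library were whole multiples, within 0.001, of 1 read, worth 0.969 in Ythdf1 KO 1, 0.827 in Ythdf1 KO 2, 1.13 in WT 1 and 1.01 in WT 2. The authors listed 87526 transcripts, none with a mean under 11.6. Each transcript also has the authors' q-value, p-value and log2 fold change, per the file headers.

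For every gene the transcript with the highest mean was kept. Genes that reached a value of 1 in 2 or more libraries were fitted as log2(value + 1) in R 4.3.3 by limma-trend 3.58.1 with robust moderation, the label being the sole term, with Benjamini-Hochberg adjustment over 23116 genes. That scale understates the change of low genes. The files hold a unit that had not been listed by name in the plan, and it was treated as a normalised value. edgeR 4.0.16 on the recovered reads called 0 genes and DESeq2 1.42.0 called 1110. The fits were tested on simulated data. Depth was 21686140 to 30951138 reads on the kept transcripts, and floors of 3 reads per library cover counting error only.

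Enzymes named were the 5 with the highest mean in each family, the 6 with the smallest p in each direction among those with a mean of at least 100, any that passed the test, and any at 0 in both libraries of a group with a mean of at least 50. Aldh4a1, Aldh6a1, Akr1b3, Akr1b8, Cyp1a1, Cyp2c68, Cyp2d13, Cyp3a59, Cyp4b1, Gstt2 and Ugt2b34 lie outside that rule. So do the remaining Ugt1a genes and the calls of other tools. All of these were named after their values were seen. Enzymes and lists were chosen with earlier results of these data known. Symbols that mark pseudogenes (3) were left out. Alternatives were the pseudocount, the filter, summed transcripts, quantile normalisation, no trend, a replicate block, edgeR, DESeq2 and leaving out each library.

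Replicate numbers showed no visible pairing: the deviations of same-numbered libraries correlated at -0.008 over all genes tested and at 0.022 over genes with a mean of at least 500. With 2 libraries per group this cannot show whether same-numbered libraries were paired by design, which the labels do not state.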

Additional observations from a re-analysis of the deposited data

How the results depend on the processing

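With 2 libraries per group, the number of calls depended on how the spread was modelled. Without an intensity trend, 431 genes were called lower and 93 higher, with 3 enzymes lower, and DESeq2 on recovered reads called 768 and 342 genes, with 8 enzymes lower and 1 higher. At a mean of at least 500, 10 enzymes lay below and 5 above both WT libraries. The count of enzymes under 0.5 times the lowest other library in Ythdf1 KO 2 was 7 or 8 with the Ugt1a genes as 1 locus, by their most or least abundant transcript, and 27 over all enzymes tested, settings chosen after seeing the data, and 14 with summed transcripts and with quantile normalisation. With each library left out in turn, genes called lower numbered 0 to 27, genes called higher 0 to 9, enzymes called lower 0 to 12 and enzymes called higher 0. Enzymes below both WT libraries then numbered 41 to 67 and those above 28 to 42, since fewer libraries overlap less often. The shares over all genes at these settings are not given here, so these counts are not read as a result about the enzymes. Their median log2 difference ran between -0.32 and -0.014. The highest counts of calls came without Ythdf1 KO 1. Other settings turned the log2 difference of Gstp1 to -0.065 with quantile normalisation, of Sult2b1 to -0.13 with summed transcripts and -0.039 with quantile normalisation, and of Sult1c2 to 0.0040 with edgeR. Leaving out 1 library turned the sign of 15 named enzymes, whose log2 differences ran from -0.0044 to 0.28 for Aldh2, -0.37 to 0.12 for Cyp2d34, -0.12 to 0.38 for Cyp2s1, -0.59 to 0.14 for Gsto1, -1.89 to 0.12 for Ces2a, -0.30 to 0.033 for Akr1a1, -0.071 to 0.53 for Aldh1l1, -0.30 to 0.00077 for Aldh3a2, -0.0304 to 0.049 for Gstp1, -0.59 to 0.11 for Akr1c13, -0.19 to 0.26 for Sult2b1, -2.22 to 0.11 for Ces1g, -0.25 to 0.64 for Gstt3, -0.13 to 0.47 for Gsta4 and -0.12 to 0.088 for Sult1c2. The cause of these turns was not tested. The replicate block left all 43 named enzymes tested on the same side, and with it no gene was called (0 lower and 0 higher). The low reads of single transcripts limit enzymes under a mean of 500, and shared reads limit the Ugt1a genes.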
